A study of Mus musculus with 9 samples.

Results

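Carbonic anhydrases and bicarbonate transporters were followed across 9 tumors grown from the murine squamous lung cancer line KLN205. The members were 8 of the 19481 genes in the deposited gene table, picked by symbol, namely the carbonic anhydrases *Car2*, *Car9*, *Car12*, *Car13* and *Car14* and the bicarbonate transporters *Slc4a2*, *Slc4a4* and *Slc4a7*. *Car2* was picked because its reads were higher in the sh2 tumors, so the values of the members in sh2 tumors are described here without a test, and only the comparison of sh3 with control tumors was tested. That comparison shares its control tumors with the choice of *Car2*.

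All tumors carried a doxycycline-inducible shRNA and grew under the skin of the flank in female DBA/2 mice, 6 to 8 weeks old at injection, with an intact immune system. The shControl tumors (n = 3) expressed a scrambled shRNA, whereas the sh2 *Tmprss11b* tumors (n = 3) and the sh3 *Tmprss11b* tumors (n = 3) each expressed a different shRNA against *Tmprss11b*, which encodes a membrane serine protease. Mice of all 3 groups received doxycycline in the drinking water once the mean tumor volume had reached 100 mm3, and the tumors were taken on day 50 for poly-A RNA sequencing. The model is 1 cell line per shRNA, whole tumor pieces include host cells, and no tumors without doxycycline were analysed here.

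Carbonic anhydrases interconvert carbon dioxide and water with bicarbonate and a proton. Some isoforms work in the cytosol and others face the outside of the cell, where tumors often use them to handle acid from glycolysis. Transporters of the SLC4 family move the bicarbonate across the membrane, either into the cell with sodium, which raises the pH inside, or out of it in exchange for chloride, which lowers it.

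Each tumor had between 20653219 and 24047784 reads assigned to genes. Levels between tumors are given as CPM (read counts scaled to a common library size, with TMM factors), in which 3 reads corresponded to 0.123 to 0.152 CPM, and levels between genes as TPM, which also account for gene length. Reads of *Tmprss11b*, listed as *Tmprss11bnl*, numbered 18, 51 and 42 in the shControl tumors, 7, 2 and 5 in the sh2 tumors and 10, 4 and 5 in the sh3 tumors, so the targeted gene was lower in every tumor with a targeting shRNA, at low counts throughout. All 8 epithelial and squamous markers were detected, with *Krt8* at 697 to 1788 CPM, whereas the basal keratin gene *Krt5* was under 1 CPM in 6 of 9 tumors. One tumor, sh2 replicate 2, stood apart: summed reads of 9 intestinal epithelium markers reached 657 CPM there and 13.3 to 41.4 CPM in the other 8 tumors, mostly from *Cdh17* (423 CPM) and *Cdx2* (94.4 CPM), with *Vil1* at 0.338 CPM. Fold changes of the members in sh2 tumors are also given below without this tumor.

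In control tumors the members spanned a wide range of levels. *Slc4a2* was the most abundant member, at 111 ± 6.05 TPM (SD, n = 3), followed by *Car2* at 52.8 ± 2.37 TPM and *Slc4a4* at 42.1 ± 11.9 TPM. *Slc4a7* stood at 19.2 ± 5.53 TPM and *Car13* at 9.18 ± 0.596 TPM. *Car12* and *Car9*, the membrane enzymes best known from hypoxic tumors, were low at 4.35 ± 2.06 TPM and 2.33 ± 0.0943 TPM. *Car14* was near the limit of detection at 0.309 ± 0.25 TPM. The neighbours *Car2* and *Slc4a4* overlapped among control tumors, as did *Car12* and *Car9*, and the other neighbours in this order did not. In 3 of the 9 tumors (sh2 replicates 1 and 2 and sh3 replicate 3) *Car2* exceeded *Slc4a2* and was the most abundant member.

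*Car2*, a fast cytosolic carbonic anhydrase abundant in red blood cells, osteoclasts, kidney and gut epithelium, was even across control tumors and uneven across the others. It measured 40, 38.7 and 40.2 CPM in shControl replicates 1 to 3, from 940, 935 and 981 reads. In sh2 replicates 1 to 3 it measured 160, 351 and 66.6 CPM, from 3791, 7262 and 1596 reads. Every sh2 tumor lay above every control tumor, by 4.03, 8.85 and 1.68 times the control mean.

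In sh3 replicates 1 to 3 *Car2* measured 21.5, 50.5 and 91.5 CPM, from 465, 993 and 2139 reads. One sh3 tumor therefore lay below all control tumors and the others above them, at 0.542, 1.27 and 2.31 times the control mean. The fitted difference was a log2 fold change of 0.46 (SE 0.60, 95% interval -0.90 to 1.82), with an FDR of 0.9 in edgeR's quasi-likelihood test over 14725 genes. Without sh3 replicate 3 it was -0.17, so its sign rested on 1 tumor.

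The fitted log2 fold change of *Car2* in sh2 tumors was 2.28 (SE 0.63), a 4.85-fold higher level. Without sh2 replicate 2, the tumor with the intestinal markers, it was 1.52, and both of the remaining sh2 tumors were above all control tumors. Over all 14725 genes, 5.56% lay higher in every sh2 tumor than in every control tumor, and *Car2* was 1 of the 7 tested members to do so, through the contrast that picked it. Between the shRNAs, *Car2* was lower in sh3 than in sh2 tumors by a log2 fold change of -1.82 (SE 0.61), which became -1.07 without sh2 replicate 2, and the groups overlapped.

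The spread of *Car2* within groups was as uneven as its level. The SD of its log2 CPM was 0.0296 among control tumors, and only 2.26% of the tested genes had a smaller one there. Among sh2 tumors the SD was 1.2, more than for 96.4% of genes, and among sh3 tumors it was 1.05, more than for 91.3% of genes. *Car2* was picked from its control and sh2 values, so its standing in those groups is only a description.

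Reads of other cells that contain *Car2* were counted beside it. The 8 erythroid markers summed to 19.5 to 45.2 CPM in control, 10.1 to 58.8 CPM in sh2 and 7.96 to 15.2 CPM in sh3 tumors. In sh2 replicates 1 to 3, with 160, 351 and 66.6 CPM of *Car2*, they summed to 10.1, 58.8 and 38.6 CPM, so the tumor with most *Car2* also had the highest erythroid sum of the 9 tumors. Of the 8 erythroid markers, 4 were under 1 CPM in every tumor. *Hba-a1* and *Hba-a2* had identical counts in each tumor, so the same reads may enter the sum with both genes. *Car1*, an erythroid carbonic anhydrase, and *Slc4a1*, the red cell anion exchanger, each had 0 reads in 7 of 9 tumors. The 6 osteoclast markers summed to 185 to 269 CPM in control, 173 to 224 CPM in sh2 and 88.1 to 367 CPM in sh3 tumors. The intestinal sum in sh2 tumors was 41.4, 657 and 25.3 CPM, and its 2 highest values fell in the 2 tumors with most *Car2*. In sh3 replicates 1 to 3, with 21.5, 50.5 and 91.5 CPM of *Car2*, the intestinal sum ran the other way, at 25.7, 15.8 and 14.5 CPM. The part of these cells in the *Car2* values was not tested, and in whole tumor RNA more cells of a type and more RNA per cell cannot be told apart.

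**Figure D1:**
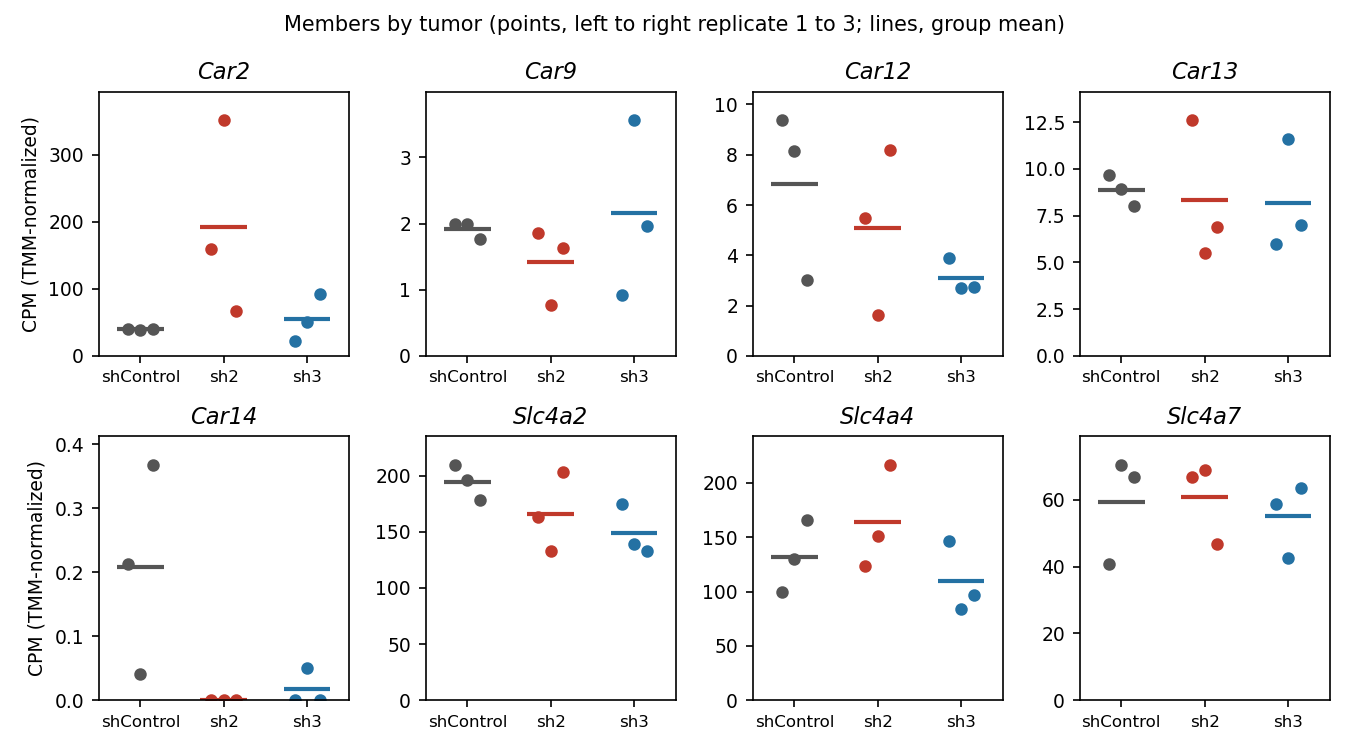
Level of each member in CPM (linear axes from 0) in the 3 shControl, 3 sh2 and 3 sh3 tumors, with points for single tumors from replicate 1 on the left to replicate 3 on the right and lines for group means. *Car2* is nearly level in controls at 38.7 to 40.2 CPM and reaches 351 CPM in sh2 replicate 2, whereas most other members overlap between groups.

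*Car2* lies in a carbonic anhydrase gene cluster on chromosome 3. In the GRCm38.p6 annotation the genes *Car13*, *Car1*, *Car3* and *Car2* follow each other within chr3:14641727-14900770, a span of 259044 bases, with 13887 bases between the end of *Car3* and the start of *Car2*. The neighbours had other patterns than *Car2*. *Car3*, a cytosolic isoform of muscle and fat with low activity, measured 42.3, 25.6 and 164 CPM in control tumors, 15.2, 8.84 and 26.6 CPM in sh2 tumors and 70.2, 3.1 and 11.2 CPM in sh3 tumors. It was thus highest where *Car2* was at the control level (shControl replicate 3) and second highest where *Car2* was lowest (sh3 replicate 1). Reads of 6 other skeletal muscle markers were also highest in these tumors, at 2863 CPM in shControl replicate 3 and 962 CPM in sh3 replicate 1, against 3.46 to 330 CPM elsewhere. Reads of 6 other adipocyte markers summed to 24.8, 52 and 42.8 CPM in control tumors. They summed to 8.93, 8.16 and 37.1 CPM in sh2 tumors and 16.9, 17.9 and 8.3 CPM in sh3 tumors. The part of muscle and fat in the *Car3* values was not tested.

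*Car13*, a second cytosolic enzyme at the other end of the cluster, differed little between groups. It measured 9.67, 8.9 and 8.02 CPM in control tumors, 12.6, 5.51 and 6.88 CPM in sh2 tumors and 5.96, 11.6 and 7.02 CPM in sh3 tumors. Tumors of both shRNAs lay on either side of the controls. The log2 fold change was -0.09 (SE 0.36) in sh2 tumors, 0.15 without sh2 replicate 2, and -0.11 (SE 0.36, 95% interval -0.92 to 0.70, FDR 0.968 in edgeR) in sh3 tumors.

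Of the membrane-bound enzymes, *Car9* and *Car12* are known targets of the hypoxia-inducible factors, whose binding sites often hold the letters ACGTG. For the members with an entry in the RefSeq promoter table (6 of 8, GRCm38.p6), these letters were searched on both strands of a 300-base window around the transcription start. They were found in *Car9* and *Car14* and in none of the other 4 genes, and 19.6% of 32851 promoters of the same length held them. The 120 bases before the start are shown for the membrane-bound enzymes, since they differ in this respect, with the match in capitals, read as its reverse complement CACGT. The match began 18 bases before the start in *Car9* and 7 bases before it in *Car14*, and no match means only that these letters are not in the window. Other forms of the site were not searched.
*Car9*, chr4:43506906-43507025, plus strand: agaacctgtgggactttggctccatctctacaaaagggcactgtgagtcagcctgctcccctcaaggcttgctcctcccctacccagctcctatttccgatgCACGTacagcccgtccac
*Car12*, chr9:66713566-66713685, plus strand: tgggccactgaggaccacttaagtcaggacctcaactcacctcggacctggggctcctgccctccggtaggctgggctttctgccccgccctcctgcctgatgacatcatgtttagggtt
*Car14*, chr3:95904686-95904805, minus strand: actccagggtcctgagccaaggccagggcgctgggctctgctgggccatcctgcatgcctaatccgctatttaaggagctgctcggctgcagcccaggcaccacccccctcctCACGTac

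*Car9*, which acidifies the space outside hypoxic tumor cells, was low in every tumor and did not separate the groups. It measured 2, 1.99 and 1.76 CPM in control tumors, 1.85, 0.773 and 1.63 CPM in sh2 tumors and 0.925, 3.56 and 1.97 CPM in sh3 tumors, from 16 to 70 reads. The lowest and the highest values both came from tumors with a targeting shRNA. The log2 fold change was -0.43 (SE 0.51) in sh2 tumors, -0.13 without sh2 replicate 2, and 0.16 (SE 0.51, 95% interval -0.99 to 1.32, FDR 0.967 in edgeR) in sh3 tumors, and the latter was -0.40 without sh3 replicate 2. The antisense gene *Gm12454* overlaps *Car9* on the other strand, and the strand setting of the counting is not given in the sources used here.

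*Car12*, a second enzyme with its active site outside the cell, was lower on average in sh3 tumors, within a wide spread. It measured 9.37, 8.15 and 3.03 CPM in control tumors, 5.48, 1.64 and 8.18 CPM in sh2 tumors and 3.88, 2.69 and 2.74 CPM in sh3 tumors. shControl replicate 3 lay among the sh3 tumors, and *Car12* varied more among controls than 96.3% of genes. The log2 fold change was -0.42 (SE 0.58) in sh2 tumors and 0.00 without sh2 replicate 2. In sh3 tumors it was -1.14 (SE 0.59, 95% interval -2.46 to 0.18), and the FDR was 0.76 in edgeR, so the difference did not pass the test.

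*Car14*, the remaining membrane-bound enzyme, had 5, 1 and 9 reads in control tumors, none in the sh2 tumors and 0, 1 and 0 reads in the sh3 tumors. Only shControl replicates 1 and 3, at 0.213 and 0.368 CPM, lay above the level of 3 reads. The gene was under the filter on low counts and was not tested. Its exons overlap those of *Aph1a* on the other strand, which reached 38.6 CPM, so its few reads are uncertain.

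*Slc4a2*, the chloride-bicarbonate exchanger AE2 that carries bicarbonate out of cells, was lower in every sh3 tumor than in every control tumor. It measured 210, 196 and 178 CPM in control tumors, 163, 133 and 203 CPM in sh2 tumors and 175, 139 and 133 CPM in sh3 tumors. The highest sh3 and the lowest control value were close together, and 1 sh2 tumor lay among the controls. The log2 fold change in sh3 tumors was -0.39 (SE 0.18, 95% interval -0.79 to 0.02), which did not pass the test (FDR 0.76 in edgeR). Over all genes, 5.44% lay lower in every sh3 tumor than in every control tumor, and *Slc4a2* was 1 of the 7 tested members that did. In sh2 tumors the log2 fold change was -0.22 (SE 0.18), and -0.08 without sh2 replicate 2. Exons of *Slc4a2* overlap those of *Fastk* on the other strand, which reached 102 CPM.

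*Slc4a4*, the electrogenic sodium-bicarbonate cotransporter NBCe1, and *Slc4a7*, the electroneutral cotransporter NBCn1, both load cells with bicarbonate. *Slc4a4* measured 99.2, 130 and 166 CPM in control tumors, 124, 151 and 217 CPM in sh2 tumors and 147, 84.2 and 96.8 CPM in sh3 tumors. Its log2 fold change was 0.32 (SE 0.28) in sh2 tumors, 0.38 without sh2 replicate 2, and -0.27 (SE 0.29, 95% interval -0.91 to 0.38, FDR 0.88 in edgeR) in sh3 tumors, and all groups overlapped.

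*Slc4a7* measured 40.7, 70.6 and 67 CPM in control tumors, 66.9, 69.1 and 46.7 CPM in sh2 tumors and 58.9, 42.6 and 63.7 CPM in sh3 tumors. Each group held 1 low tumor and 2 higher ones. The log2 fold change was 0.04 (SE 0.25) in sh2 tumors, -0.06 without sh2 replicate 2, and -0.11 (SE 0.25, 95% interval -0.68 to 0.46, FDR 0.951 in edgeR) in sh3 tumors.

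**Figure D2:**
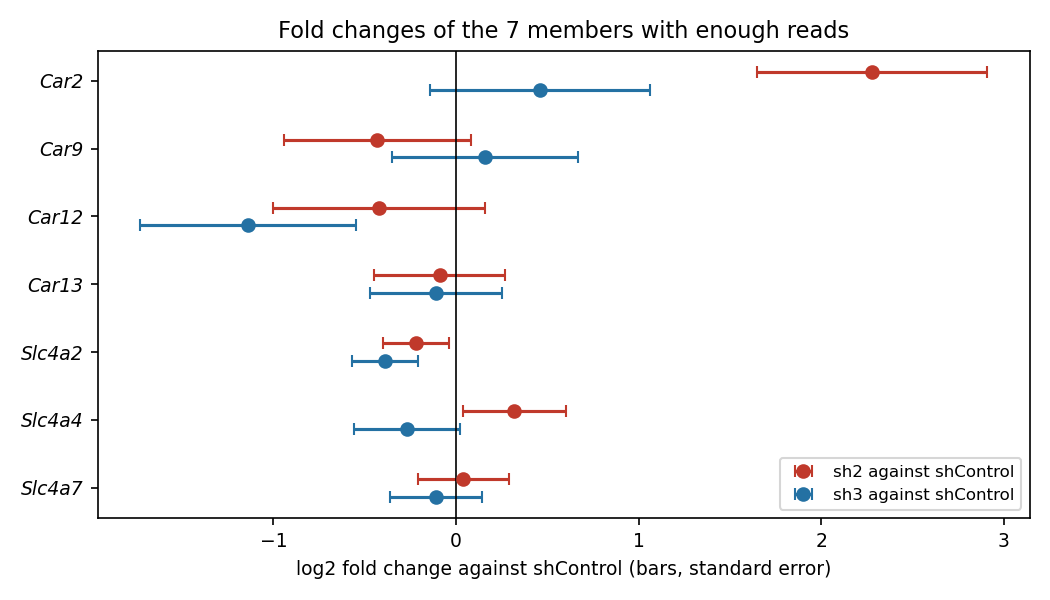
Log2 fold change against shControl (horizontal axis, bars are standard errors of the edgeR fit) for the 7 members with enough reads, in sh2 (red) and sh3 (blue) tumors, n = 3 each. *Car2* in sh2 tumors, chosen for this value, is at 2.28, and all other points lie between -1.14 and 0.46.

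None of the 7 tested members passed an FDR of 0.05 in sh3 against control tumors, and 0 of all 14725 genes did (0% called), with 976 genes (6.63%) at an unadjusted p under 0.05, none of them a member. The median log2 fold change of the members was -0.11, beside 0.03 over all genes. These intervals were wide: for *Car2* the 95% interval reached up to 1.82 on the log2 scale and for *Car12* down to -2.46.

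Among the 5 member enzymes, *Car2* made up most of the transcripts. It accounted for 73.9%, 75.3% and 80.5% of their summed TPM in control tumors, 91.8%, 98.4% and 86.1% in sh2 tumors and 74.5%, 78.7% and 91.4% in sh3 tumors. Without *Car2*, the remaining 4 enzymes summed to 16.2 ± 2.52 TPM in control, 13.3 ± 5.98 TPM in sh2 and 11.3 ± 2.47 TPM in sh3 tumors (SD, n = 3 each). The *Car2* share follows from the level that picked the gene.

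With the 11 other carbonic anhydrases of the table included, the share of *Car2* was 29.2% ± 12.4 in control, 72.9% ± 16.9 in sh2 and 50.4% ± 29.9 in sh3 tumors (SD, n = 3 each). *Car3* then took up 39.9%, 30.8% and 74.1% of the sum in control tumors and 61.3% in sh3 replicate 1, the tumors with muscle markers named above among them. *Car5b*, the mitochondrial enzyme, was next, with 2.19% to 11.3% of the sum, and *Car4*, a lipid-anchored enzyme of gut and capillaries, reached 4.37% in sh2 replicate 2 and at most 1.95% elsewhere.

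**Figure D3:**
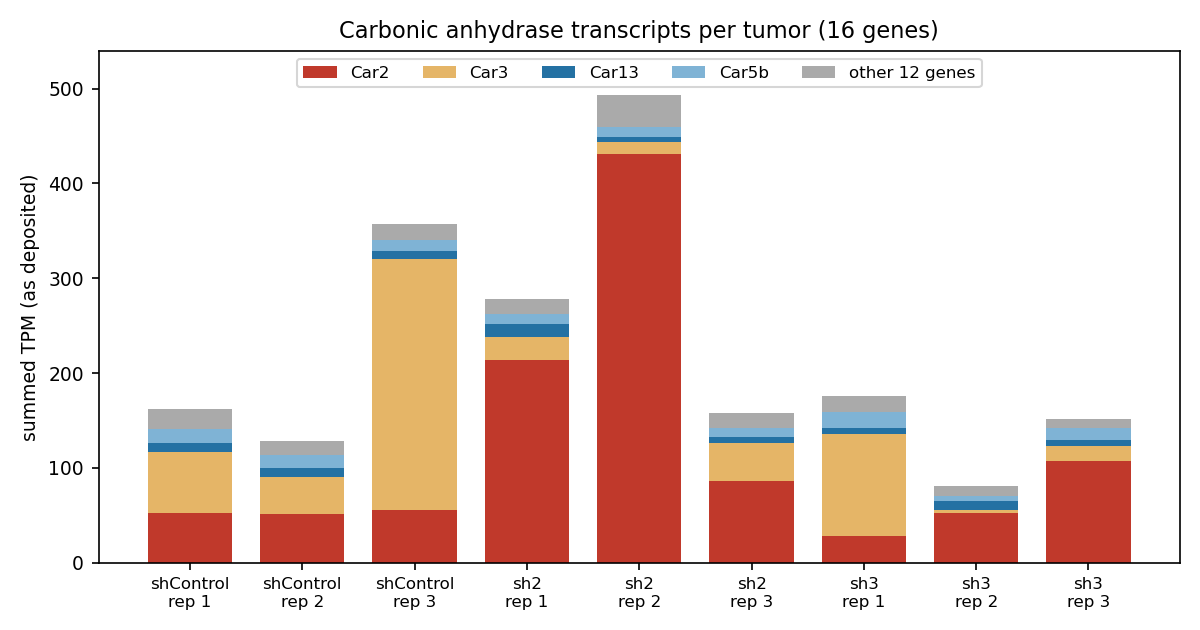
Summed TPM (linear axis from 0) of the 16 carbonic anhydrase genes in each of the 9 tumors, divided into *Car2*, *Car3*, *Car13*, *Car5b* and the other 12 genes. *Car2* makes up 77.1%, 87.4% and 54.4% of the sum in the sh2 tumors, and *Car3* 74.1% in shControl replicate 3 and 61.3% in sh3 replicate 1.

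Other genes of acid-base handling were grouped by role, and no gene of any list passed an FDR of 0.05 in any of the 3 comparisons, as for all genes (0% called in each). At an unadjusted p under 0.05, 518 genes (3.52%) differed in sh2 against control tumors and 1057 (7.18%) in sh3 against sh2 tumors. The role lists are therefore described by their levels and by the tumors that stood out.

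Of the 11 other carbonic anhydrases, 7 had enough reads, with a median log2 fold change of -0.37 in sh2 and -0.25 in sh3 tumors. *Car3* had the largest change in sh3 tumors, -1.45, which was -0.27 without shControl replicate 3 and -3.42 without sh3 replicate 1. *Car4* had the largest in sh2 tumors, 3.00, at 12.8 CPM in sh2 replicate 2 and 0.501 and 1.22 CPM in the others. Without sh2 replicate 2 it was 0.54, so *Car4* and the intestinal markers stood out in the same tumor. Between the shRNAs *Car4* differed by -2.33, and by 0.12 without that tumor.

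Of the 16 other SLC4 and SLC26 transporters, 9 had enough reads, with a median of -0.03 in sh2 and 0.23 in sh3 tumors. *Slc4a11*, a member of the family found in corneal endothelium, was the most abundant at 82.6, 101 and 91.7 CPM in control, 139, 177 and 109 CPM in sh2 and 274, 39.2 and 107 CPM in sh3 tumors. All sh2 tumors lay above all control tumors, and the sh3 tumors held both the highest and the lowest value. Over all tested genes the spread was widest among sh3 tumors (median SD of log2 CPM 0.351, beside 0.18 in control and 0.22 in sh2 tumors). Several of the 9 genes were highest in sh3 replicate 1, and the share over all genes was not counted. *Slc26a9*, a chloride transporter of epithelia, measured 35.7 CPM there against 4.73 to 21.1 CPM elsewhere. *Slc26a11*, a sulfate transporter and second in abundance, reached 30.1 CPM there and 9.07 to 15 CPM elsewhere. *Slc4a8*, a sodium-driven chloride-bicarbonate exchanger, had the largest change in sh3 tumors, 0.92, and 0.34 without that tumor. *Slc26a10* had the largest change in sh2 tumors, -1.26, at under 1 CPM in all control and sh2 tumors.

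Of the 10 sodium-proton exchangers, which expel protons in exchange for sodium, 8 had enough reads, with a median of 0.02 in sh2 and -0.13 in sh3 tumors. *Slc9a8*, an exchanger of the Golgi, measured 56, 61.1 and 68.7 CPM in control and 51.8, 40 and 47.8 CPM in sh3 tumors, so every sh3 tumor was below the controls. *Slc9a2*, an epithelial exchanger, reached 86.9 CPM in sh3 replicate 1 against 6.76 to 32 CPM in the other tumors. Its log2 fold change in sh3 tumors was 1.45 with that tumor and -0.54 without it, and 0.78 in sh2 tumors, or 0.41 without sh2 replicate 2.

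Of the 27 proton pump and channel genes, mostly subunits of the vacuolar proton pump that acidifies lysosomes and the cell exterior, 23 had enough reads, with a median of 0.00 in sh2 and 0.16 in sh3 tumors. In TPM, *Atp6v1a*, *Atp6v1b2*, *Atp6v0d1*, *Atp6v1h* and *Atp6ap2* were highest in other tumors than sh3 replicate 2, although their CPM was highest in it. Other genes of the list were highest in sh3 replicate 2 in both units. The share over all genes was not counted, and sh3 tumors varied most over all tested genes, as given above. *Atp6v1f*, the most abundant subunit gene, measured 179 CPM there and 87.7 to 121 CPM in the others, and *Atp6v0b* measured 203 CPM there and 138 to 160 CPM in the others. *Hvcn1*, a proton channel of leukocytes, measured 68.5 CPM there against 16.1 to 54.9 CPM elsewhere.

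The 7 macrophage markers in the table summed to 5289 CPM in sh3 replicate 2, against 2572 to 2859 CPM in control tumors, 1496 CPM in sh2 replicate 2 and 1060 CPM in sh3 replicate 1. *Car9* and *Car13* had the same extremes in part: *Car9* was highest in sh3 replicate 2 and lowest in sh2 replicate 2 and sh3 replicate 1, and *Car13* was second highest in sh3 replicate 2. The part of macrophages in these values was not tested.

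*Atp6v0d2*, a pump subunit of osteoclasts and macrophages, had the largest change of the list in both comparisons. It measured 1.28, 1.41 and 0.819 CPM in control tumors, 2.49, 8.31 and 4.05 CPM in sh2 tumors and 4.85, 5.94 and 1.28 CPM in sh3 tumors. All sh2 tumors lay above the controls, whereas 1 sh3 tumor did not. The log2 fold change was 2.08 in sh2 tumors (1.48 without sh2 replicate 2) and 1.78 in sh3 tumors, with FDR values of 0.999 and 0.753 in edgeR. The 5 other osteoclast markers summed to 185 to 268 CPM in control, 164 to 221 CPM in sh2 and 83.3 to 361 CPM in sh3 tumors.

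The 5 genes of lactate-proton cotransport had medians of 0.09 in sh2 and -0.09 in sh3 tumors, with log2 fold changes between -0.13 and 0.26 in both. *Bsg*, the chaperone of the lactate transporters, had 0.26 in sh2 tumors and *Slc16a1*, which encodes MCT1, had 0.21 in sh3 tumors. Of the 6 proton sensors 5 had enough reads, with medians of -0.20 and -0.05. The leukocyte receptor *Gpr65* was the most abundant of them, at 58.9 and 58.5 CPM in sh3 replicates 2 and 3 and 11.1 to 38.4 CPM in the other tumors.

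The 12 hypoxia-induced genes listed beside *Car9* and *Car12* had a median of 0.29 in sh2 tumors, with 9 of 12 above 0 (51.8% of all genes were), and of -0.10 in sh3 tumors, with 5 of 12 above 0 (54.9% of all genes). *Car9* (-0.43) and *Car12* (-0.42) were on the other side of 0 in sh2 tumors. Without sh2 replicate 2 they were at -0.13 and 0.00. *Slc2a1*, the glucose transporter GLUT1, measured 124 to 256 CPM in control, 200 to 349 CPM in sh2 and 124 to 348 CPM in sh3 tumors. *Egln3*, an oxygen-sensing prolyl hydroxylase gene, had the largest change of the list in each comparison, 0.93 in sh2 tumors (0.54 without sh2 replicate 2) and -0.86 in sh3 tumors.

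**Figure D4:**
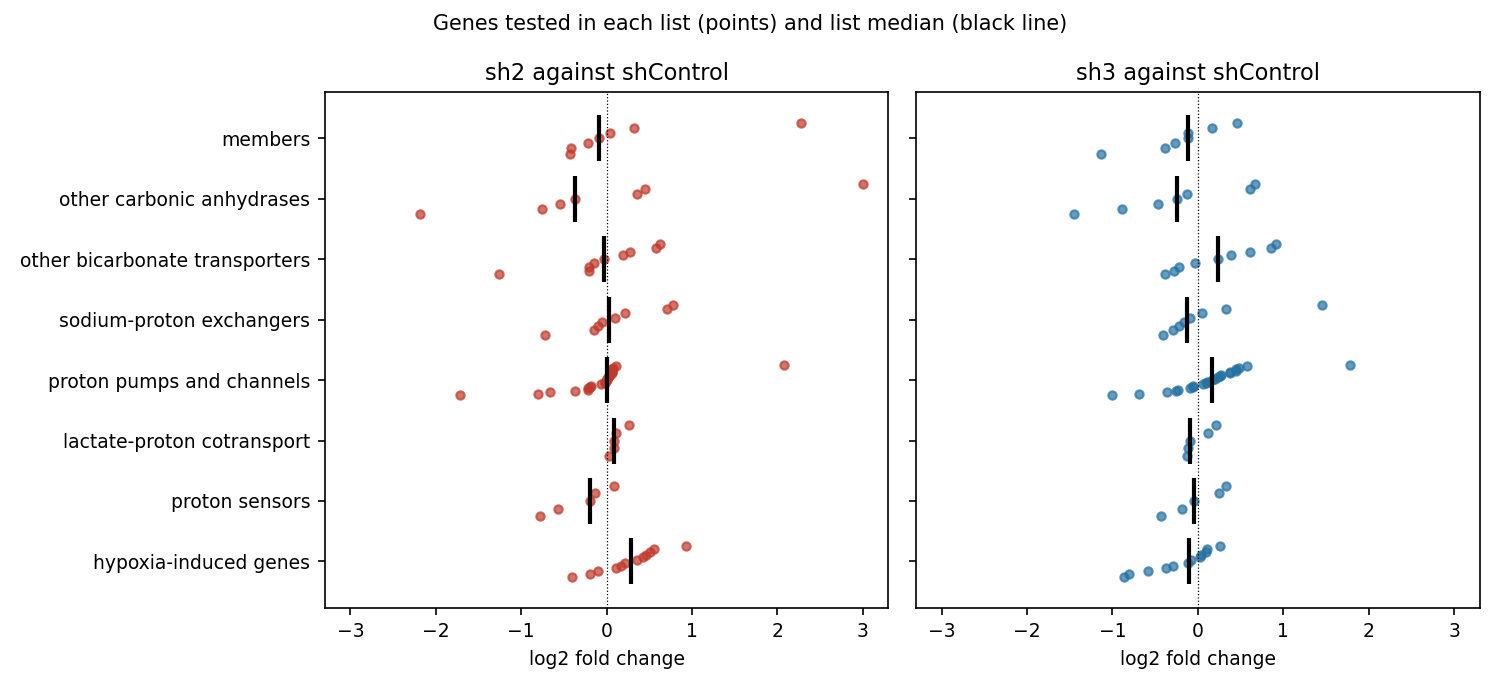
Log2 fold change (horizontal axis) against shControl of every gene with enough reads in the members and in 7 lists of acid-base genes, in sh2 tumors (left, red) and sh3 tumors (right, blue), n = 3 per group, with a black line at the median of each list. Medians lie between -0.37 and 0.29, and the outlying points are *Car2*, *Car3*, *Car4*, *Slc9a2*, *Atp6v0d2* and a few low genes.

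The members did not move as a block across the 9 tumors. Among the 21 pairs of tested members, the highest Pearson correlation of log2 CPM was 0.89, between *Car12* and *Slc4a2*, and the next was 0.80, between *Car9* and *Car13*. *Car2* was correlated with no other member above 0.34, and its lowest value was -0.57 with *Slc4a2*. *Slc4a4* had -0.58 with *Car9*. These values are over 9 tumors that share a line, a host strain and cell mixtures, and are given as descriptions.

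The genes most like each member were sought among the 13605 tested genes that averaged 1 CPM or more, by Pearson correlation over the 9 tumors. For *Car2* they were *Adra1d* (0.94), *Kdelc1* (0.94) and *Ctnnbl1* (0.93), of which *Adra1d* ranged from 0.509 to 3.19 CPM and *Ctnnbl1* only from 57.1 to 75.2 CPM. For *Car9* they were *Ecscr* (0.99), *Traf5* (0.98) and the pump subunit gene *Atp6v1b2* (0.98). For *Car12* the closest were *Dixdc1*, *Ppp6r2* and *Apcdd1* (0.92, 0.91 and 0.91), and for *Car13* they were *Hunk*, *Wdsub1* and *Sash1* (0.97, 0.95 and 0.92).

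For *Slc4a2* they were *Mir702* (0.95), whose annotation lies inside *Plod3*, *Nfasc* (0.93) and *Tctn1* (0.92). For *Slc4a4* they were *Cog3*, *Kcnq5* and *Igf2r* (0.93, 0.93 and 0.92), and for *Slc4a7* they were *Casp8ap2*, *Lrba* and *Cers6* (0.96, 0.95 and 0.95). With 13605 genes and 9 tumors, high values of this size are found for each of the 7 members.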

How the data were processed

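Raw read counts per gene and TPM values of the same 9 tumors were used as the authors deposited them. CPM values were computed from the counts with the library totals and TMM factors of the genes tested. The deposited CPM (a count signal scaled by edgeR's TMM factors) served only for a check. Per the labels, poly-A libraries were made with a stranded kit and processed with STAR 2.5.3a, featureCounts and edgeR on mm10. The annotation release and the strand setting of the counting are not given in the sources used here. Deposited CPM equalled the count over the TMM-scaled total to within 5.11e-15.

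Differences were fitted on the counts with edgeR 4.0.16 (R 4.3.3) by the quasi-likelihood test in 1 model of the 3 groups, after filterByExpr, which kept 14725 genes, with Benjamini-Hochberg FDR over all of them. Standard errors are the log2 fold change over the square root of F. The code was tested on simulated data. GEO's labels call the 3 tumors of a group biological replicates. Members, lists and markers were chosen with earlier results of these data known. Genes named from a list are the 2 with the highest mean TPM and the 1 with the largest log2 fold change in each comparison, and *Slc26a9* and single marker genes were named after their values were seen. One gene that this rule names is not reported here. Promoters and gene positions are from RefSeq (GRCm38.p6). Log2 CPM for correlations had a prior count of 2. Alternatives included DESeq2 1.42.0, edgeR's likelihood ratio test, other filters and scaling, and leaving out each tumor.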

Additional observations from a re-analysis of the deposited data

Results flagged for a closer look

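*Egln3*, a hypoxia-induced gene listed beside the members, lay on opposite sides of the control mean with the 2 shRNAs, while both groups overlapped the control tumors. It measured 71.7, 98.3 and 33.9 CPM in control tumors, 74.1, 192 and 123 CPM in sh2 tumors and 42.4, 42.9 and 27.3 CPM in sh3 tumors, and was singled out because all sh2 tumors were above and all sh3 tumors below the control mean on the log2 scale. The difference of sh3 from sh2 tumors was a log2 fold change of -1.79, with an FDR of 0.673 in edgeR's quasi-likelihood test over 14725 genes.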

How the results depend on the processing

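Of 667 log2 fold changes recomputed under alternatives, 656 kept their direction and side of the threshold, or moved by less than the spread between tumors where no test was made. No member passed an FDR of 0.05 in sh3 against control tumors under any alternative run. The number of genes past that FDR, 0 in each comparison with edgeR's quasi-likelihood test, was 2, 41 and 53 with DESeq2's Wald test in sh2 against control, sh3 against control and sh3 against sh2 tumors, and 8 and 14 with edgeR's likelihood ratio test in the latter comparisons. The cause was not tested. Among these, *Egln3* passed in sh3 against sh2 tumors with DESeq2, with a log2 fold change of -1.80 (FDR 0.0186).

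Leaving out each tumor in turn kept these numbers at 0 throughout, and *Car2* in sh2 tumors ranged from 1.52 to 2.69. In sh3 against control tumors the sign turned for *Car2* (-0.17 to 0.84), *Car9* (-0.40 to 0.52), *Car13* (-0.45 to 0.07), *Slc4a7* (-0.33 to 0.04), *Slc16a1* (-0.04 to 0.41) and *Slc9a2* (-0.54 to 1.92). In sh3 against sh2 tumors it turned for *Slc9a2* (-1.32 to 1.14), *Car4* (-3.32 to 0.12), *Slc26a10* (-0.30 to 1.45) and, without a test, *Car13* (-0.36 to 0.39) and *Slc4a7* (-0.32 to 0.01). In sh2 against control tumors, also without a test, it turned for *Car13* (-0.52 to 0.15) and *Slc4a7* (-0.17 to 0.20). Where a list of most alike genes was built with Spearman's in place of Pearson's correlation, it kept 1 of 3 genes for *Slc4a4* and *Slc4a7* and 0 of 3 for the other members.

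Tumors with the same replicate number did not deviate together (mean correlation -0.099, from -0.24 to 0.086, over 9 pairs, beside 0.052 over 18 pairs with different numbers). With the replicate number as a block, 0 genes passed in each comparison and *Car2* had 2.17 in sh2 tumors. Depth limited *Car14* and, with 16 to 70 reads, *Car9*.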
